A study of Astyanax mexicanus with 12 samples.

Results

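Interferon response genes were followed in the livers of the fish Astyanax mexicanus, which lives in rivers as a sighted form and in caves as an eyeless one. The members were taken by name from a list of 49 gene symbols, of which 30 matched a row of the expression table of 27420 genes, and 19 matched none. Of the 30, 28 were tested, that is, in 3 or more of the 12 libraries they reached 1 TPM, as 12895 genes did in all. TPM is a transcript abundance scaled by transcript length and to the same total in every library. The other members were gbp1, an interferon-induced GTPase listed at 0.53 TPM or less in every library, and irf1a, listed at 0 in all 12.

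Vertebrate cells sense viral nucleic acid through RNA helicases and Toll-like receptors, whose adaptors and kinases activate interferon regulatory factors (IRFs). Secreted interferon then acts through JAK kinases and STAT factors, which with irf9 switch on a broad set of antiviral genes, among them the sensors and STATs themselves. In unstimulated cells most of these effector genes are kept low, while kinases such as jak1 and tbk1 are expressed at all times.

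Each group held 3 adult livers, taken after 12 hours of fasting: cave fish caught in the wild (cave wild) or kept in the laboratory (cave lab), both titled Pachón, and surface fish from the wild (surface wild) or the laboratory (surface lab). The labels give no transgene or drug, and they name no sex, age in months, infection status or sequencing batch. Wild-caught and laboratory fish may differ in stock as well as surroundings, and these cannot be told apart. Nothing in the labels says more of how replicates were taken, so p-values rest on the spread among these 3 livers a group. Unless stated otherwise, the spread of a gene was pooled over all groups. A p-value therefore does not measure the spread of the compared groups alone.

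Hepatocyte markers summed to 90600 to 163600 TPM in each library, so the labelled tissue was borne out. Genes at 1 TPM or more numbered 9144 to 10034 in cave wild libraries and 10924 to 12343 in the other 9. Median-of-ratios factors, computed from genes expressed in every library, were 0.58 to 0.70 in cave wild and 0.96 to 1.42 elsewhere. TPM keeps no read depth, so the counting error behind a value is unknown. In whole liver, fewer cells of a type and less RNA per cell cannot be told apart.

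In many of these genes single livers, rather than whole groups, carried the highest values. For 15 of the 28 tested members the 3 highest of the 12 libraries were cave lab 1, cave lab 3 and surface wild 2. The same 3 libraries were highest for 0.799% of all tested genes (103). With median-of-ratios scaling the numbers were 14 members and 0.698%. The set of libraries was named after the values were seen and is given as a description. For mxa, mxe and znfx1, counted among the 15, the filter had fixed this set. They reached 1 TPM in these 3 libraries alone.

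**Figure D1:**
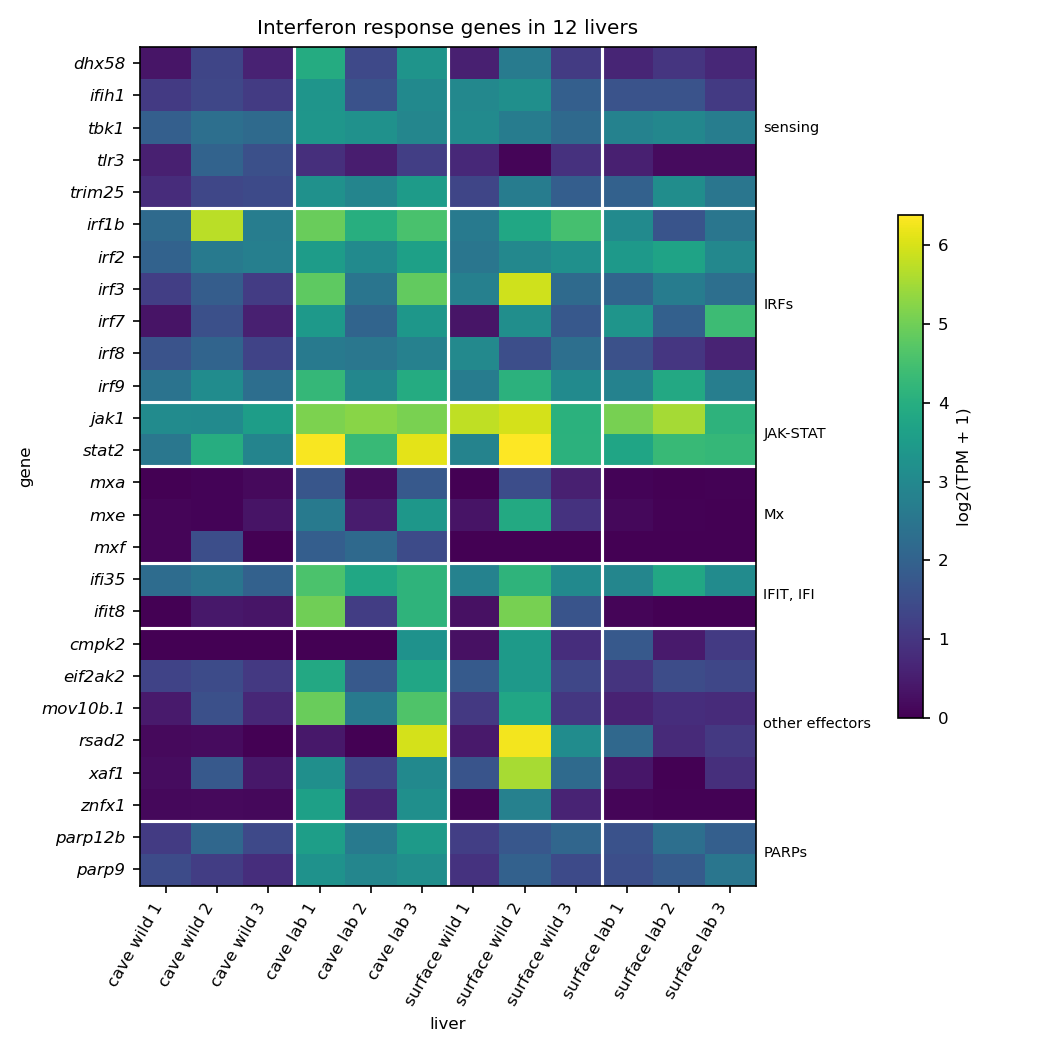
Level of 26 of the 28 tested interferon response genes, as log2(TPM + 1) by colour, in each of the 12 livers (columns, 3 per group) with genes ordered by role (rows). Cave lab 1, cave lab 3 and surface wild 2 have the 3 highest values in 13 of the rows, while cave lab 2 and surface wild 1 and 3 are darker in these rows.

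The effector ifit8 (ENSAMXG00000032260), of the IFIT family that binds viral RNA, showed the pattern in its plainest form. It stood at 31.1, 1.25 and 16.8 TPM in cave lab 1, 2 and 3 and at 0.23, 32.9 and 2.16 in surface wild 1, 2 and 3. In cave wild livers it was listed at 0, 0.32 and 0.28 TPM, and in surface lab livers at 0.06, 0 and 0. For ifit8, cave lab 2 therefore lay far below the other cave lab livers, though still above all surface lab livers. Surface wild 2 alone stood high among wild-caught fish.

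The helicase gene mov10b.1 and the zinc finger gene znfx1 followed it. The gene mov10b.1 (ENSAMXG00000000035) stood at 29.2, 5.14 and 24.0 TPM in cave lab 1 to 3, and at 1.07, 12.7 and 1.04 in surface wild 1 to 3. It lay at 0.38, 1.93 and 0.65 in cave wild and at 0.54, 0.78 and 0.72 in surface lab livers. Even its lowest cave lab value lay above all surface lab values. The gene znfx1 (ENSAMXG00000000907), a double-stranded RNA sensor in mammals, stood at 11.3, 0.57 and 8.10 TPM in cave lab and at 0.07, 6.01 and 0.56 in surface wild livers. In cave wild and surface lab livers it did not exceed 0.12 TPM.

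The apoptosis factor xaf1 (ENSAMXG00000000093) was at its highest in surface wild 2, at 45.8 TPM, against 2.18 and 3.59 in surface wild 1 and 3. In cave lab 1, 2 and 3 it stood at 8.13, 1.42 and 7.25 TPM, in cave wild at 0.16, 2.43 and 0.32, and in surface lab at 0.31, 0 and 0.83. The kinase eif2ak2 (ENSAMXG00000003716), which stops translation when it binds double-stranded RNA, stood at 13.5, 2.42 and 12.8 TPM in cave lab and at 2.48, 9.78 and 1.57 in surface wild livers. Its other values were 1.07 to 1.76 in cave wild and 0.96 to 1.80 in surface lab livers, so these groups overlapped.

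The radical SAM enzyme rsad2 (ENSAMXG00000017272), known as viperin, and the nucleotide kinase cmpk2 (ENSAMXG00000030357) departed from the others in cave lab 1. The rsad2 level was 0.32, 0 and 62.0 TPM in cave lab 1, 2 and 3, and 0.35, 77.2 and 7.60 in surface wild livers. It was 0.11, 0.13 and 0 in cave wild and 3.47, 0.70 and 1.08 in surface lab livers. The cmpk2 level was listed at 0, 0 and 8.62 TPM in cave lab, at 0.23, 10.2 and 0.79 in surface wild, at 0 in all cave wild and at 2.44, 0.38 and 1.11 in surface lab livers. Both were thus high in cave lab 3 and surface wild 2 but not in cave lab 1, where ifit8 and mov10b.1 had their highest values within the group. Matched by symbol, cmpk2 and rsad2 are neighbouring genes in the RefSeq annotation of the AstMex3_surface assembly.

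Mx proteins are dynamin-like GTPases that block viral replication, and 3 of the 7 listed Mx genes had a row. The mxe level (ENSAMXG00000002138) was 5.18, 0.40 and 9.40 TPM in cave lab and 0.26, 13.6 and 0.91 in surface wild livers, and it was 0.26 or less in all cave wild and surface lab livers. The mxa level (ENSAMXG00000009202) was 2.25, 0.16 and 2.46 TPM in cave lab and 0.01, 1.85 and 0.48 in surface wild livers, with 0.11 or less elsewhere. A different order held for mxf (ENSAMXG00000015779), at 2.77, 3.56 and 1.76 TPM in cave lab and 0.07, 1.90 and 0 in cave wild livers, and listed at 0 in all 6 surface livers. Cave lab 2 had the highest mxf value and surface wild 2 none. Mx genes are close copies, and how the authors' estimation divided reads that fit several of them is uncertain.

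**Figure D2:**
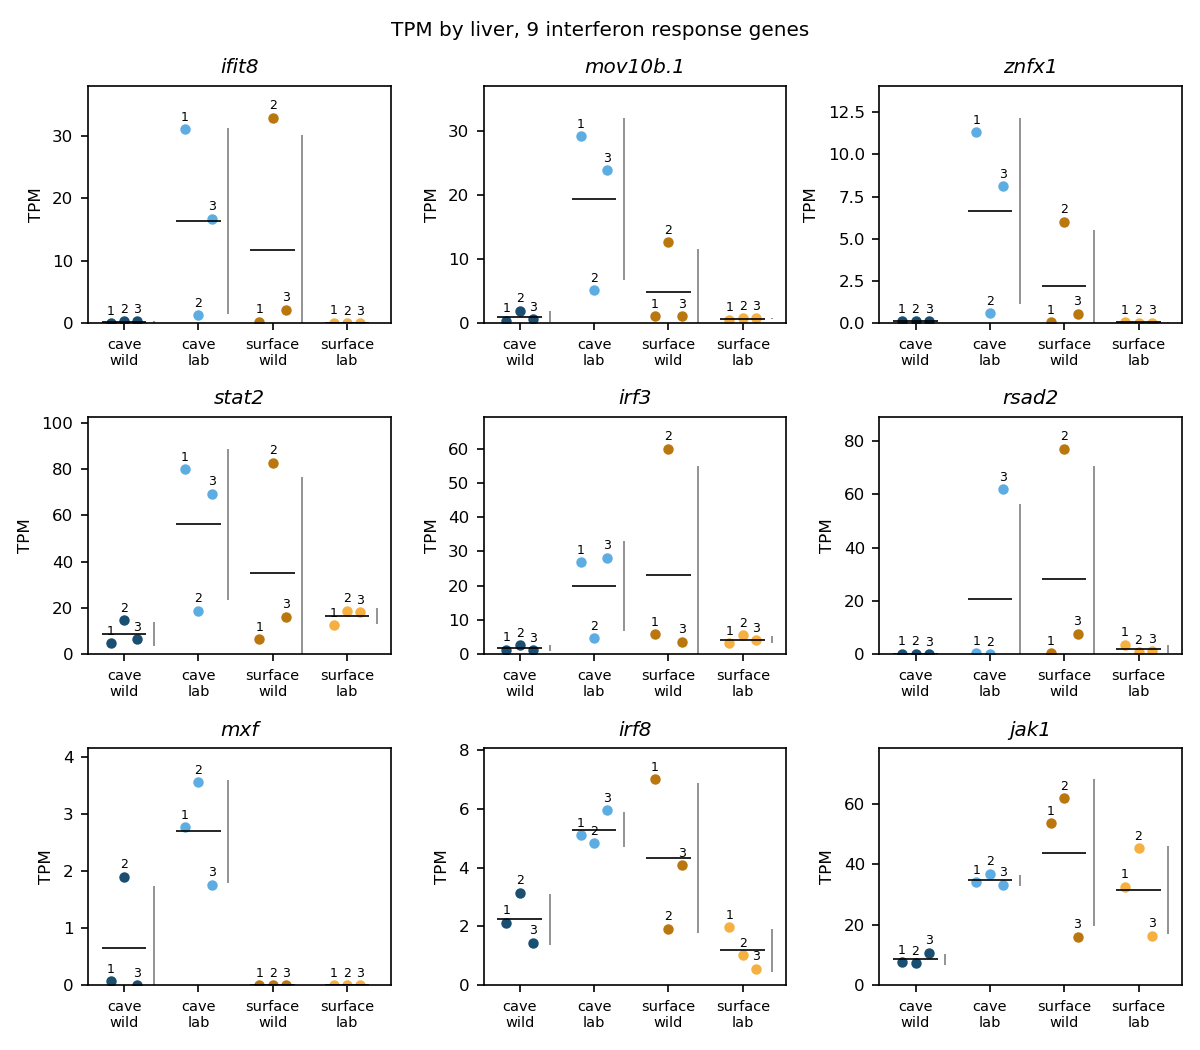
TPM of 9 members in each liver (points, numbered by replicate), with the mean (horizontal line) and ±1 SD (grey bar, stopped at 0) of the 3 livers of each group. Cave lab 1 and 3 and surface wild 2 carry the high values of ifit8, mov10b.1, znfx1, stat2 and irf3, whereas mxf is listed at 0 in all 6 surface livers and irf8 and jak1 do not share this order.

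The signal transducer stat2, a partner of irf9, followed the effectors at higher levels. The stat2 level (ENSAMXG00000013030) was 80.0, 18.8 and 69.5 TPM in cave lab, 6.30, 82.9 and 16.2 in surface wild, 4.83, 14.7 and 6.35 in cave wild and 12.4, 18.8 and 18.3 in surface lab livers. It was thus expressed in all 12 livers, with surface wild 2, cave lab 1 and cave lab 3 highest. The kinase jak1 (ENSAMXG00000010587), which phosphorylates STATs at the receptor, was even in cave lab livers at 34.0, 36.9 and 33.3 TPM. It was 53.7, 62.0 and 16.1 in surface wild, 7.51, 7.33 and 10.8 in cave wild, and 32.7, 45.5 and 16.4 in surface lab livers.

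Among sensors, dhx58 (ENSAMXG00000030658), a helicase related to RIG-I, stood at 14.2, 1.65 and 8.98 TPM in cave lab and at 0.47, 5.34 and 1.15 in surface wild livers, against 0.28 to 1.54 in cave wild and 0.59 to 0.99 in surface lab livers. The double-stranded RNA sensor ifih1 (ENSAMXG00000010023) stood at 8.99, 2.03 and 7.14 TPM in cave lab, 6.95, 8.03 and 2.81 in surface wild, 1.14 to 1.57 in cave wild and 1.14 to 2.12 in surface lab livers. In surface wild fish ifih1 was high in library 1 as well, where dhx58 was low. The ubiquitin ligase trim25 (ENSAMXG00000006132), an activator of RIG-I in mammals, was high in all 3 cave lab livers at 8.46, 6.50 and 10.4 TPM, and stood at 0.75 to 1.71 in cave wild, 1.52 to 5.48 in surface wild and 2.97 to 7.83 in surface lab livers. The kinase tbk1 (ENSAMXG00000000745), which phosphorylates IRFs, ranged over 2.83 to 9.26 TPM in all 12 livers. The endosomal receptor tlr3 had its highest value in cave wild 2, 3.08 TPM, and its lowest in surface wild 2, 0.06 TPM.

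The IRFs did not move as a block. The interferon inducer irf3 (ENSAMXG00000021232) stood at 26.8, 4.55 and 28.2 TPM in cave lab and 5.86, 59.9 and 3.59 in surface wild livers, against 1.21 to 2.68 in cave wild and 3.20 to 5.46 in surface lab livers. Its relative irf7 (ENSAMXG00000016465) had its highest value in surface lab 3, at 19.8 TPM, with 9.05 and 2.92 in surface lab 1 and 2, 9.95, 3.16 and 9.39 in cave lab, 0.28, 7.94 and 2.37 in surface wild and 0.26 to 1.93 in cave wild livers. The STAT partner irf9 ranged over 3.98 to 18.1 TPM, with 18.1, 6.83 and 14.4 in cave lab livers. The activator irf1b peaked in cave wild 2, at 52.0 TPM, against 3.63 and 5.53 in the other cave wild livers and 15.0 to 29.6 in cave lab livers. The repressor irf2 stayed within 3.02 to 12.0 TPM. The myeloid cell factor irf8 (ENSAMXG00000003452) was 5.12, 4.83 and 5.96 TPM in cave lab, 7.02, 1.92 and 4.08 in surface wild, 2.13, 3.15 and 1.44 in cave wild and 1.98, 1.01 and 0.56 in surface lab livers. Its order in surface wild livers was the reverse of that of ifit8, with library 2 lowest.

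The remaining members were ifi35, an interferon-induced leucine zipper protein, and the ADP-ribosyltransferases parp9 and parp12b. The ifi35 level was 23.1, 13.1 and 16.9 TPM in cave lab, 6.13, 16.8 and 7.15 in surface wild, 3.79, 4.58 and 2.99 in cave wild and 6.70, 13.2 and 7.53 in surface lab livers. Values of parp9 were 8.53, 6.70 and 7.94 TPM in cave lab and 0.80 to 4.69 in the other 9 livers, without overlap. Those of parp12b were 10.9, 5.26 and 10.2 TPM in cave lab and 1.17 to 4.07 in the other 9. Both PARP genes were therefore highest in all 3 cave lab livers, cave lab 2 included, as were 11.2% of all tested genes (1447). With median-of-ratios scaling 1 member had these livers highest, beside 4.95% of all tested genes.

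Within groups, 24 of the 28 tested members were lowest of the 3 cave lab livers in cave lab 2, where 21.8% of all tested genes were. In surface wild 2, 21 members were the highest of the 3, against 33.9% of all tested genes. Over the 28 members the median log2(TPM + 1) of cave lab 2 lay 1.44 below the mean of the other cave lab livers. That of surface wild 2 lay 1.35 above the mean of the other surface wild livers. All tested genes had medians of 0.08 and 0.10 above. The counts and medians for cave lab 2 and surface wild 2 include mxa, mxe and znfx1. For these genes the filter had fixed cave lab 2 as lowest and surface wild 2 as highest of its group. Cave wild 2 was also highest of its group for 21 members, with a median of 0.35 against 0.05 for all genes, where 39.1% of all tested genes were highest; with median-of-ratios scaling it was 18 members. In surface lab 1, 2 and 3 the medians of the members were 0.018, -0.013 and -0.043, so no liver stood out on these values. Medians of all tested genes there were -0.051, 0.325 and -0.259. The members thus lay below all genes in surface lab 2 and above them in surface lab 3. The within-group SD of log2(TPM + 1), pooled over groups, had a median of 0.74 over members and 0.42 over all tested genes. Group by group the members' spread was unequal. Its median was 0.987 in surface wild (0.45 over all tested genes) and 0.835 in cave lab livers (0.247). In cave wild livers it was 0.363 (0.31), and in surface lab livers 0.313, below the 0.39 of all tested genes.

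**Figure D3:**
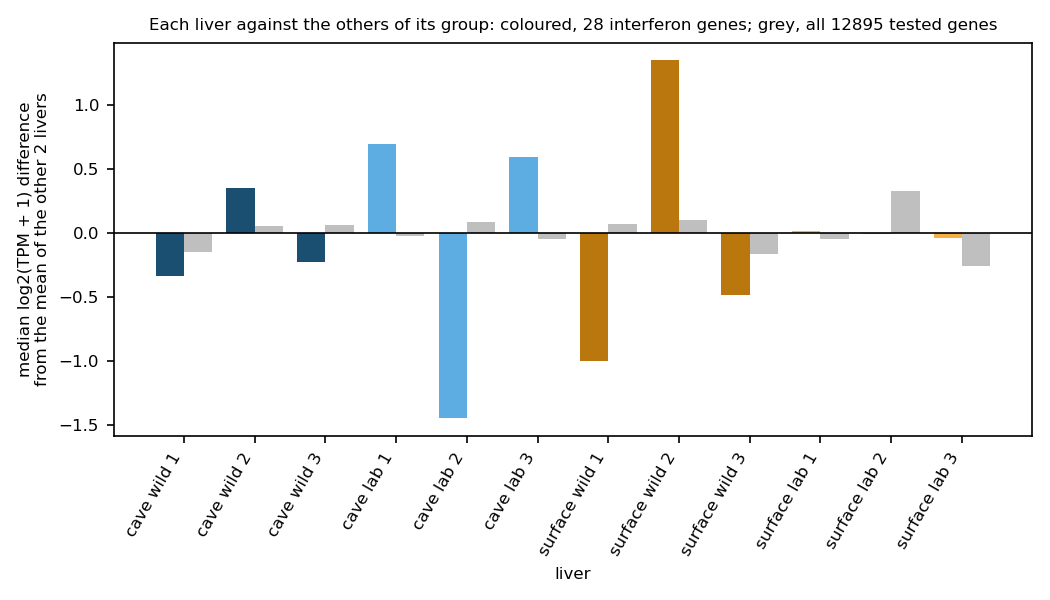
Median over genes of the log2(TPM + 1) of each liver minus the mean of the other livers of its group, for the 28 tested members (coloured bars) and all 12895 tested genes (grey bars). Cave lab 2 lies 1.44 below and surface wild 2 lies 1.35 above for the members, whereas the grey bars stay between -0.26 and 0.32. For mxa, mxe and znfx1, among the members, the filter had fixed the direction in cave lab 2 and surface wild 2.

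In their sums, macrophage and lymphocyte markers did not follow this order of livers. Summed over 19 rows, macrophage markers stood at 193, 327 and 288 TPM in cave lab 1, 2 and 3 and at 236, 194 and 186 in surface wild 1, 2 and 3, so the liver with the lowest interferon genes in cave lab had the highest sum. The other livers lay at 49.0 to 99.0 TPM in cave wild and 131 to 215 in surface lab, and 0 or 1 of the 19 rows was at 0 in each library. Much of the sum came from slc40a1 and csf1ra, the latter at 50.4 TPM in surface wild 2 and at 78.0, 120 and 0.77 in surface lab livers. Without these 2 genes the sums were 110, 161 and 128 in cave lab and 169, 70.8 and 145 in surface wild livers, so that cave lab 2 was still the highest and surface wild 2 the lowest of its group, and 38.7 to 83.6 in cave wild and 30.9 to 71.8 in surface lab livers. The median log2(TPM + 1) over the 15 tested macrophage markers was 2.04, 2.66 and 2.15 in cave lab 1, 2 and 3. It was 2.82, 2.58 and 2.41 in surface wild livers, where library 2 lay in the middle. Single markers went both ways in surface wild livers, with spi1a at 2.18, 2.73 and 0.91 TPM and cd74a at 62.0, 16.8 and 61.6. The pan-leukocyte gene ptprc was 8.54, 10.1 and 9.23 TPM in cave lab and 10.2, 7.12 and 9.46 in surface wild livers. Lymphocyte markers summed to 14.8, 14.2 and 13.0 TPM in cave lab and 18.5, 7.09 and 15.1 in surface wild livers. Of their 20 rows 2 passed the filter. Within these sums cxcr4b alone stood at 6.08, 4.73 and 4.62 TPM in cave lab and 7.46, 1.78 and 2.83 in surface wild livers. The part of macrophages and lymphocytes in the interferon levels was not tested. Neutrophil markers summed to 5.0, 6.92 and 5.51 TPM in cave lab, but to 18.4, 34.8 and 5.82 in surface wild livers, where library 2 was highest; their part in its interferon levels was not tested.

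Of 28 members 4 were higher in laboratory cave livers than in laboratory surface livers (14.3%, where 5.26% of all tested genes were higher and 2.30% lower). These were mov10b.1 (log2 difference 3.31 ± 0.72 SE, limma adjusted p = 0.0145), mxf (1.86 ± 0.35, adjusted p = 0.00599), irf8 (1.58 ± 0.36, adjusted p = 0.0201) and parp9 (1.16 ± 0.32, adjusted p = 0.0480). Among the tested members mxf and ifit8 reached 1 TPM in all 3 livers of cave lab, where they were high, and of no other group. Without cave lab livers they would not have passed the filter. The members mxa, mxe and znfx1 reached 1 TPM in 2 cave lab livers and 1 surface wild liver. They too, among others, needed cave lab livers to pass. The filter favours a difference in all of these, and apart from them 3 members were called. The counts without overlap and at an unadjusted p that follow still include these named members. Log2 differences in this and the following comparisons are of log2(TPM + 1), which understates changes of low genes. Livers of the 2 groups did not overlap for 14 members, all higher in cave fish, against 18.7% of all tested genes higher without overlap. No member was lower at an adjusted p under 0.05 by limma, and at an unadjusted p under 0.05 there were 16 higher and 0 lower. The share of all tested genes at an unadjusted p is not given, here or below, so such counts are descriptions only. A total of 26 members lay above 0, and the median over members was 1.24, against 0.10 over all tested genes. Among those that did not pass, ifit8 had a difference of 3.41 ± 1.07 (limma adjusted p = 0.0810), with cave lab 2 far below the other cave lab livers.

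This laboratory count depended on single livers. It was 10 without cave lab 2 (3.52% of all tested genes higher in that fit) and 11 without surface wild 2 (5.32%), which enters through the shared spread. It was 1 without cave lab 1 (3.85%) or cave lab 3 (3.51%), 2 without surface lab 1 (3.09%) or surface lab 2 (5.06%), and 11 without both surface wild 1 and 2 (6.01%). With median-of-ratios scaling 3 members passed (3.48% of all tested genes higher), parp9 missing the threshold (0.96, adjusted p = 0.156). Of 15 tested macrophage markers limma called 0, 10 were higher and 0 lower at an unadjusted p under 0.05, and their median was 0.81. Endothelial markers had 2 of 14 tested higher, lyve1b (1.90 ± 0.42, limma adjusted p = 0.0152) and flt1 (0.89 ± 0.22, adjusted p = 0.0273), and hepatocyte markers 1 of 14 lower. Endothelial sums were 48.1 to 66.8 TPM in cave lab and 33.7 to 40.1 in surface lab livers; the part of these cells in the members' differences was not tested.

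Cave wild livers had the lowest group mean for 17 of the 28 tested members, where 59.1% of all tested genes had it, and cave lab livers the highest for 21, against 42.7%. These 21 include, among others, mxf, ifit8, mxa, mxe and znfx1, which needed cave lab livers to pass the filter. The filter thus favours this count. The wild-caught minus laboratory comparison in cave fish held the most calls of the 5. Of 28 members 20 were lower in wild-caught fish and 0 higher (71.4% lower, where 34.3% of all tested genes were lower and 1.51% higher). At an unadjusted p under 0.05 there were 23 lower and 0 higher, and apart from mxf and ifit8 limma called 18 lower. These 18 still include, among others, mxa and znfx1, which also needed cave lab livers to pass the filter. Among those with low adjusted p-values were parp9 (-1.96 ± 0.32, limma adjusted p = 0.00237), trim25 (-2.02 ± 0.38, adjusted p = 0.00379), ifi35 (-1.94 ± 0.39, adjusted p = 0.00445) and parp12b (-1.68 ± 0.36, adjusted p = 0.00623). Larger in size were ifit8 (-3.19 ± 1.07, adjusted p = 0.0369) and mov10b.1 (-3.15 ± 0.72, adjusted p = 0.00789). Also lower were, among others, the sensors dhx58 and ifih1, the kinase tbk1, the factors irf2, irf3 and irf7, the transducers jak1 and stat2, and the effectors mxa, mxf, eif2ak2 and znfx1, by 0.93 (irf2) to 2.64 (irf3). Groups did not overlap for 21 members, all lower in wild-caught fish, where 56.6% of all tested genes were.

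These cave fish calls rested on the scale and on single livers. The median of all tested genes was -0.69, and the median over members was -1.93, so the members lay 1.25 further down. Median-of-ratios scaling moved the median of all genes by 0.69, to 0.01, and 1 member then passed as lower, trim25 (-1.32, adjusted p = 0.0465), where 3.53% of all tested genes did. On that scale 27 of 28 members still lay below 0, with a median of -1.18, and 8 were lower without overlap (18.7% of all tested genes). The count on the TPM scale was 8 without cave lab 1 (21.9% of all tested genes lower in that fit), 9 without cave lab 3 (24.8%), 7 without cave wild 1 (16.2%) and 8 without cave wild 3 (23.4%), so the share of all genes fell in these fits as well. Markers of most cell types were lower too, where 34.3% of all tested genes were. These were 6 of 15 macrophage, 7 of 14 endothelial, 5 of 14 hepatocyte, 2 of 4 erythrocyte and 1 of 2 lymphocyte genes tested. Of neutrophil markers 0 of 4 tested were lower. Endothelial sums were 21.9 to 32.5 TPM in cave wild and 48.1 to 66.8 in cave lab livers, and macrophage sums were lower in cave wild livers, as given above; the part of these cells in the members' differences was not tested.

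**Figure D4:**
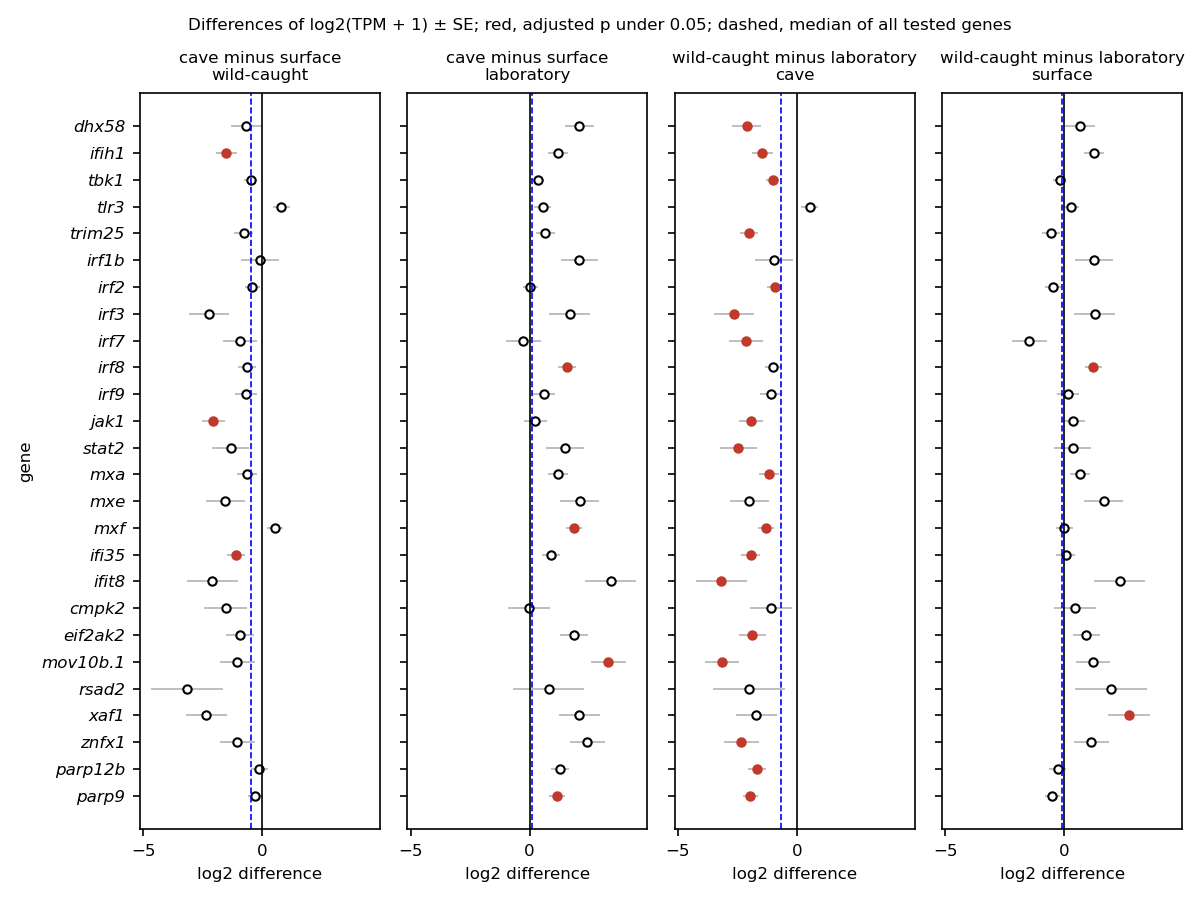
Log2 differences of log2(TPM + 1) with standard errors for 26 of the 28 tested members (rows) in 4 comparisons (panels); filled red points have a limma adjusted p under 0.05, and the dashed line is the median of all tested genes. Members lie to the right in laboratory fish (median 1.24) and to the left in the cave fish comparison (median -1.93), where 18 are red. Over all 28 tested members 20 pass there as lower, beside 34.3% of all tested genes. With median-of-ratios scaling 1 passes as lower, beside 3.53% of all tested genes.

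Wild-caught cave livers lay below wild-caught surface livers for 4 of 28 members, among them jak1 (-2.05 ± 0.49, limma adjusted p = 0.0133), ifih1 (-1.51 ± 0.44, adjusted p = 0.0238) and ifi35 (-1.09 ± 0.39, adjusted p = 0.0491). None was higher at an adjusted p under 0.05, and 1 was higher and 6 lower at an unadjusted p under 0.05. These 14.3% lower stand beside 26.5% of all tested genes lower and 5.13% higher. The median over members was -0.96 and that of all tested genes -0.46. Groups did not overlap for 7 members, all lower in cave fish, against 37.2% of all tested genes. For rsad2, at 0.13 TPM or less in cave wild livers, the difference was -3.17 ± 1.51 (adjusted p = 0.124).

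The wild-caught count was 0 without surface wild 2 (9.65% of all tested genes lower in that fit), and 1 without surface wild 1 (10.8%), cave wild 1 (16.9%) or cave wild 3 (15.3%). It was 2 without cave wild 2 (10.6%) or surface lab 1 (24.5%), and 0 without both surface wild 1 and 2 (1.21%). Without surface wild 2 the median over members lay 0.07 above that of all genes, in place of 0.50 below it. With median-of-ratios scaling jak1 alone passed as lower (-1.42, adjusted p = 0.0415) and the receptor tlr3 alone as higher (1.17, adjusted p = 0.0452), where 7.85% of all tested genes were lower and 10.1% higher. In this comparison 9 of 15 macrophage and 3 of 4 neutrophil markers tested were lower in cave livers, and of 14 hepatocyte markers 3 were lower and 2 higher; the part of these cells was not tested.

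Wild-caught and laboratory surface livers differed in 2 of 28 members, both higher in wild-caught fish (7.14%, where 6.77% of all tested genes were higher and 11.2% lower). These were xaf1 (2.72 ± 0.86, limma adjusted p = 0.0478) and irf8 (1.22 ± 0.36, adjusted p = 0.0391), the latter with surface wild 2 inside the range of surface lab livers. A total of 20 members lay above 0, and the median was 0.54, against -0.11 over all tested genes. Groups did not overlap for 5 members, ifih1, ifit8, mov10b.1, mxe and xaf1, all higher in wild-caught fish, where 10.6% of all tested genes were. Deviations of equally numbered livers from their group means correlated weakly in the surface groups (0.153, 0.111 and 0.271). Over all pairs of groups the range was -0.207 to 0.271. With the replicate number as a block irf8 alone passed (limma adjusted p = 0.0403), xaf1 missing the threshold (adjusted p = 0.0607). With the block and only the surface livers, limma called 0, and 3 had an unadjusted p under 0.05. With median-of-ratios scaling irf8 and ifih1 (1.31, adjusted p = 0.0451) were higher, as were 9.48% of all tested genes, and xaf1 missed the threshold (2.66, adjusted p = 0.0545). Leaving out single livers gave 0 to 2 members, with 0 without cave lab 1, cave lab 3, cave wild 1, surface lab 2 or surface lab 3, and 1 without cave wild 2, cave wild 3, surface lab 1, surface wild 1 or surface wild 2; over the 12 fits 2.00% to 13.9% of all tested genes were higher. Of the markers, 4 of 15 macrophage genes and 3 of 4 neutrophil genes were higher in wild-caught surface fish, and 4 of 14 hepatocyte and 2 of 4 erythrocyte genes lower; the part of these cells was not tested.

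The median cave minus surface difference of the members was -0.96 in wild-caught and 1.24 in laboratory fish. The interaction, the cave minus surface difference in wild-caught fish minus that in laboratory fish, was below 0 for 27 of 28 members, with a median of -2.25 against -0.61 over all tested genes. It passed for 3 members, all negative (10.7%, where 4.19% of all tested genes were negative and 0.892% positive): mov10b.1 (-4.35 ± 1.02, limma adjusted p = 0.0377), ifih1 (-2.70 ± 0.62, adjusted p = 0.0359) and irf8 (-2.21 ± 0.52, adjusted p = 0.0375). The lowest fitted value, -5.51 ± 1.52 for ifit8, had an adjusted p of 0.0552. With median-of-ratios scaling limma called 0 members (0.659% of all tested genes negative), 14 had an unadjusted p under 0.05, all of them negative, and 26 of 28 members lay below 0. The count was 8 without cave lab 2 (1.60% of all tested genes negative in that fit), 13 without surface wild 3 (20.7%), 5 without surface lab 2 (7.81%) and 1 without surface lab 1 (1.41%). It was 0 without cave lab 1, cave lab 3, cave wild 1, cave wild 3 or surface lab 3, with 0.907% to 1.57% of all tested genes. In the interaction 6 of 15 macrophage, 1 of 4 neutrophil and 1 of 2 lymphocyte markers were negative; the part of these cells was not tested.

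Other genes of the pathway, from 5 lists of receptors, sensors, IRFs, JAK-STAT factors and effectors, had 66 tested rows. In the laboratory comparison 3 were higher and 0 lower in cave fish by limma (9 and 2 at an unadjusted p under 0.05), with a median of 0.14, beside 5.26% of all tested genes higher. They were jak3, a kinase of lymphocyte cytokine receptors, at 5.27 to 5.87 TPM in cave lab and 0.16 to 0.59 in surface lab livers (2.27 ± 0.31, limma adjusted p = 0.000682), the phosphatase ptpn6 (1.19 ± 0.30, adjusted p = 0.0323) and rnf213b, an antiviral ubiquitin ligase in mammals (1.73 ± 0.39, adjusted p = 0.0167). In cave fish 34 were lower and 1 higher in wild-caught livers, with a median of -0.88 beside -0.69 over all tested genes, of which 34.3% were lower. In wild-caught fish 19 were lower in cave livers, with 26.5% of all tested genes. In surface fish 3 were higher and 2 lower in wild-caught livers, with 6.77% and 11.2% of all tested genes, and the interaction gave 5 negative, with 4.19% of all tested genes.

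The interferon gamma receptor gene ifngr1l was expressed throughout, at 28.5 to 40.6 TPM in cave lab, 24.9 to 63.6 in surface wild, 31.9 to 42.6 in surface lab and 10.3 to 16.2 in cave wild livers. Of the 66 other pathway rows, 2 had cave lab 1, cave lab 3 and surface wild 2 as their highest libraries, epsti1 and rnf213b. The epsti1 level, a gene named for epithelial stromal interaction, was 21.4, 4.56 and 16.8 TPM in cave lab, 0.71, 27.6 and 5.44 in surface wild, 0.72 to 2.86 in cave wild and 1.59 to 1.84 in surface lab livers. It thus shared its 3 highest livers, though not always their order, with ifit8, mov10b.1 and znfx1.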

How the data were processed

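The authors deposited a table of TPM values per Ensembl gene and library, made with RSEM according to the submitters' processing notes, which also list bcl2fastq 2.18 and STAR 2.6.1c. Per the labels' protocols, stranded poly(A) libraries were sequenced as single reads of 75 nt. No RSEM version, genome build or annotation is stated in the labels or the table; gene order was read from RefSeq's AstMex3_surface annotation, and promoters and protein sequences were not used here. Columns sum to the fixed total of a TPM table within rounding.

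Genes reaching 1 TPM in 3 or more libraries (12895) were analysed as log2(TPM + 1) with limma 3.58.1 in R 4.3.3, using 4 group means over 12 libraries, eBayes with trend, two-sided tests and Benjamini-Hochberg adjustment over all tested genes at 0.05. The code was tested on simulated data. Members and lists were chosen with earlier results of these data known. Values in every library are given for members past the threshold with a log2 difference of at least 1 and for the main genes of each role. Results of 2 members are counted but not reported singly here. Alternatives were median-of-ratios scaling, no filter, a pseudocount of 0.1, a 5 TPM filter, a replicate block, fits of the compared groups alone, and leaving out libraries. The fit of the surface groups alone with a block was chosen after seeing the data. Residuals of equally numbered libraries correlated at -0.207 to 0.271, and the surface groups had all 3 values over 0.1 (0.153, 0.111 and 0.271).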

Additional observations from a re-analysis of the deposited data

Results flagged for a closer look

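By the interaction test on the TPM scale, 3 members were called for a cave minus surface difference unlike in wild-caught and laboratory fish. They were mov10b.1 (-4.35), ifih1 (-2.70) and irf8 (-2.21), in log2 units. In the same test 4.19% of all tested genes were negative and 0.892% positive. For mov10b.1 the difference was -1.04 ± 0.72 in wild-caught and 3.31 ± 0.72 in laboratory fish. For ifih1 it was -1.51 ± 0.44 and 1.19 ± 0.44, and for irf8 -0.64 ± 0.36 and 1.58 ± 0.36. With median-of-ratios scaling all 3 missed the threshold (limma adjusted p = 0.0832, 0.0844 and 0.139), and 0.659% of all tested genes were negative. The calls also depended on single livers, as given above.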

How the results depend on the processing

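Over the alternatives, the 33 calls of single members in the 5 comparisons gave 623 values, none of them reversed, of which 415 stayed past the threshold and 208 did not. Median-of-ratios scaling kept 6 of the 33, no filter 15 and the replicate block 27. With median-of-ratios scaling 1 member was higher and 1 lower in the wild-caught comparison (10.1% and 7.85% of all tested genes). On that scale 1 was lower in the cave fish comparison (3.53%) and 0 passed in the interaction (0.659% negative). A pseudocount of 0.1 gave 7 in the interaction (4.02% of all tested genes negative). A filter at 5 TPM gave 2 in the laboratory comparison (3.36% higher). That fit did not hold mxf, which stood at 3.56 TPM or less in every library. Without a filter, which tests more genes, 1 was lower in cave livers in the wild-caught comparison (11.5% of all tested genes). In the cave fish comparison 12 were lower in wild-caught livers (19.9%). In that fit 0 were higher in the surface fish comparison (2.45%) and 0 passed in the interaction (1.65% negative). Fits of the compared groups alone gave 2 lower in the wild-caught comparison (11.3% of all tested genes) and 0 higher in the surface fish comparison (0.24%). The fit without surface wild 1 and 2 together left 1 surface wild liver, so its counts are not read as results about the members. The replicate block gave 1 higher in the surface fish comparison (7.01% of all tested genes), and 0 with the surface livers alone (0%). In the other comparisons it moved no count by more than 1.5 times. For these moves the cause was not tested.

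Leaving out single livers gave 0 to 1 higher (2.33% to 7.45% of all tested genes) and 0 to 6 lower members (9.65% to 32.6%) in the wild-caught comparison. It gave 1 to 11 higher in the laboratory comparison (3.09% to 5.68%) and 7 to 23 lower in the cave fish comparison (16.2% to 39%). In the surface fish comparison 0 to 2 were higher (2% to 13.9%), and in the interaction 0 to 13 were negative (0.907% to 20.7%). The shares of all tested genes thus moved as well. The members' median relative to all tested genes in the wild-caught comparison ranged from -0.90 to 0.071, being above 0 without surface wild 2 alone. Precision is limited by 3 livers a group and by TPM, which keeps no depth.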
